A study of Mus musculus with 2 samples.

Results

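Non-classical class I MHC (class Ib) genes and Cd1d1 were followed in splenic dendritic cells (DC) of mice that carry or lack an intact H2-Aa gene. The 7 genes, H2-Q4, H2-Q6, H2-Q7, H2-T22, H2-T23, H2-M3 and Cd1d1, were taken by symbol from the 32285 genes of the count tables. All 7 had UMIs in both libraries. A UMI (unique molecular identifier) marks 1 captured RNA molecule.

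Class Ib proteins resemble the classical class I molecules H2-K and H2-D and pair, with few exceptions, with the same light chain, B2m, but vary little between individuals and show restricted ligands to particular lymphocytes. H2-T23 encodes Qa-1, which shows class I leader peptides to CD94/NKG2A receptors of NK and T cells. H2-M3 presents N-formylated bacterial peptides, H2-T22 is bound by some gamma delta T cells, and H2-Q6 and H2-Q7 lie in the Q region that encodes the Qa-2 antigen. CD1d is the lipid-presenting relative that selects and activates natural killer T cells.

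Both libraries came from naive female C57BL/6J mice, pooled by 3 for each genotype. The labels give an age of 4 months, and the study's methods a younger one. The H2-Aa cit/cit mice, called citation mice here, are homozygous for citation, a chemically (ENU) induced allele of H2-Aa, the alpha chain of the MHC class II molecule I-A, and WT littermates carry 2 intact copies. The cells were enriched for CD11c and sorted as live CD45.2+ CD11c+ cells. With 1 library for each genotype and no map from cell to mouse, spread between mice is not measured and no test was possible. Intervals below are exact 95% intervals that cover counting error only, and "past the fold" means at least 1.5-fold and is a size, not a test.

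There were 7814 WT cells with 51020804 UMIs and 11525 citation cells with 72652201 UMIs, and 31 cell barcodes occurred in both libraries. Levels are given as CPM, the UMIs of a gene scaled to a total of 1000000 UMIs. H2-Aa itself was at 5409.7 CPM in WT cells, against 66.2 CPM in citation cells, which matches the labels. Cells were placed in 14 classes by marker genes that hold no MHC gene, and class names below stand for these gates. Conventional DC fall into cDC1, known for showing antigen to CD8 T cells, and cDC2, known for showing it to CD4 T cells, while plasmacytoid DC (pDC) are known for making type I interferon. The sorting gate was seen in the RNA, with Itgax, which encodes CD11c, at 199 CPM (WT) and 224 CPM (citation). The T cell gene Cd3e was at 0.823 and 0.317 CPM and the B cell gene Cd79a at 0.921 and 0.303 CPM. Another B cell gene, Ms4a1, was higher, at 15.5 and 6.95 CPM. The red cell genes Hbb-bs (206 and 89.6 CPM) and Hba-a1 (74.9 and 32.5 CPM) were higher still. The cDC1 gene Xcr1 was at 395 and 405 CPM in resting cDC1, and the pDC gene Siglech at 2956.3 and 2400.8 CPM in pDC. Both are among the markers that gate these classes, so high values there follow from the gate and do not check it. Mature cells with Ccr7 and Fscn1, the programme of activated DC, were split by 10 cDC1 markers. Those with fewer than 2 detected, called mature DC without cDC1 genes, made up 18.9% (WT) and 9.18% (citation) of the cells. Among them, 389 WT and 161 citation cells held 1 cDC1 marker, so the name is not literal. Those with 2 to 4, called mature DC with cDC1 genes, made up 2.82% and 0.286%. Mature cells with 5 or more also met the gate of resting cDC1, so they were given no class and are in neither mature class. The other large classes were Ffar2 cDC2 (22.4% and 38.9%), cDC2 with little ribosomal RNA (18.9% and 15.0%) and resting cDC1 (5.36% and 4.58%). No class was given to 20.3% of WT cells and 17.6% of citation cells, which met no gate or did not meet the gates of a single class.

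Of the 7 genes, 6 lie on chromosome 17 (GRCm38), between 1.09 and 2.98 megabases from H2-Aa. H2-Q4 (chr17:35379617-35385290), H2-Q6 (chr17:35424850-35430055), H2-Q7 (chr17:35439155-35443773) and H2-M3 (chr17:37270220-37274484) are on the plus strand, and H2-T22 (chr17:36037128-36042747) and H2-T23 (chr17:36029773-36032855) on the minus strand. Cd1d1 is elsewhere, on the minus strand of chromosome 3 (chr3:86995834-86999441). All 7 are protein-coding genes in GENCODE vM21. Sequence shared with other genes, of the same family or not, can hide reads from a counter that keeps only uniquely placed reads. In the last 500 bases of the principal transcript, the part that 3' libraries read, the share of 100-base windows found letter for letter in another gene was 6.23% for H2-Q6, 3.74% for H2-Q7, 6.48% for H2-Q4, 9.73% for H2-T23 and 0 for H2-M3 and Cd1d1. For H2-T22 it was 21.2%, all of it shared with H2-T10, which was not analysed here, so H2-T22 is the least certain of the 7.

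The region just before the start site is shown for 4 of these genes, chosen by counting intervals over 12 classes. The log2 ratio of citation over WT had its interval above 0 in 8 classes for H2-Q6, 9 for H2-Q7 and 7 for H2-T22, against 4 at most for the other members, and below 0 in 6 classes for H2-T23. The sequences (RefSeq, GRCm38.p6) hold the 250 bases before the start, 5' to 3' on the gene's strand. They were searched on both strands, together with the 50 bases after the start, for 4 motifs, which are printed in capitals: TTTC followed by any 2 bases and TTTC again (the longer interferon-response type), its shorter relative TTTCNNTTC, the kappaB type GGGNNTTCC, and CCAATCAG, a CCAAT box with its flank. A stretch that matches either interferon type cannot match the other from the same first base. Of 32851 promoters of the same length, 3.44% held the longer interferon type, 7.52% TTTCNNTTC, 5.82% GGGNNTTCC and 4.10% CCAATCAG.
H2-Q6, chr17:35424600-35424849, plus strand: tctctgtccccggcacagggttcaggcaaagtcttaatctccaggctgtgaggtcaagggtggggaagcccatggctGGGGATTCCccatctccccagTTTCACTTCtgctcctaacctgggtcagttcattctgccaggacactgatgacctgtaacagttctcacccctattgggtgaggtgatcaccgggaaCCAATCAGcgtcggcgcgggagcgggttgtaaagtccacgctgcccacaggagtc
H2-Q7, chr17:35438905-35439154, plus strand: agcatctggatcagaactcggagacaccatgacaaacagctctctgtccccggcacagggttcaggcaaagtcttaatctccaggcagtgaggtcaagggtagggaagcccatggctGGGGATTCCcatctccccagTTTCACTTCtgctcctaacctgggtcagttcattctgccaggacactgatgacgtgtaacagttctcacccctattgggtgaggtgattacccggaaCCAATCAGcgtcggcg
H2-T22, chr17:36042743-36042992, minus strand: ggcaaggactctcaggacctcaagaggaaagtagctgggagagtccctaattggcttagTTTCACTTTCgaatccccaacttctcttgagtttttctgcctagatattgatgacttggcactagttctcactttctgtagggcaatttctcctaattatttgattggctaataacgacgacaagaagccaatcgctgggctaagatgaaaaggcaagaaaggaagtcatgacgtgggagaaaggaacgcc
H2-T23, chr17:36032702-36032951, minus strand: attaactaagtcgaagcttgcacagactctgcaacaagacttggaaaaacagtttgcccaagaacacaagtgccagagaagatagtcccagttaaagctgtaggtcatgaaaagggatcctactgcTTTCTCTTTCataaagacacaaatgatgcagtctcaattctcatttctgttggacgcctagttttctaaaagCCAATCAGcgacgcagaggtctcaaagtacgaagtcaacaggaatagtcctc

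The promoters of H2-Q6 and H2-Q7 are near copies, with 254 identical and 6 differing bases where they align. Both hold TTTCACTTC, a kappaB-type match and CCAATCAG in the same order, as do those of the classical genes H2-K1 and H2-D1. H2-Q4 has the first of these and a kappaB-type match, and H2-M3 has TTTCACTTC alone. H2-T22 and H2-T23 instead hold the longer interferon type, as TTTCACTTTC and TTTCTCTTTC, and H2-T23 also CCAATCAG. These matches describe the letters and not the binding of any factor. Cd1d1 had no entry among the promoters used.

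In WT cells, class Ib genes were not evenly spread over DC. Values are given for the 12 classes with at least 30 cells in each library. H2-Q7 was highest in pDC, at 751 CPM. Mature DC without cDC1 genes followed at 440 CPM, then mature DC with cDC1 genes at 373 CPM and transitional DC, which share genes with pDC, at 329 CPM. The last 2 did not differ beyond counting error. Proliferating cells, monocyte-like and C1q macrophage-like cells and Ffar2 and Ccr2 cDC2 lay between 144 and 199 CPM, with neighbours in this order overlapping, and resting cDC1 at 115 CPM. The lowest value, 79.1 CPM, was in cDC2 with little ribosomal RNA. In cells thinned at random to 1500 UMIs each, H2-Q7 was detected in 66.2% of WT pDC (95% interval 54.8 to 76.4) against 15.6% of resting cDC1 (12.2 to 19.4), and without thinning in 100% and 62.3%.

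H2-Q6 and H2-Q4 followed another order, led by mature cells. H2-Q6 was at 217 CPM in mature DC without cDC1 genes, 177 CPM in those with cDC1 genes and 153 CPM in pDC, while all other classes were at 80.3 CPM or less. H2-Q4, which encodes the Qb-1 antigen, was at 180 and 156 CPM in mature DC with and without cDC1 genes and at 88.4 CPM in pDC, against 28.1 CPM in resting cDC1, its lowest. Against Ffar2 cDC2 of the same library, mature DC without cDC1 genes were higher by a log2 ratio of 1.93 (1.82 to 2.05) for H2-Q6, 1.69 (1.56 to 1.82) for H2-Q4 and 1.50 (1.42 to 1.57) for H2-Q7. The share of H2-Q6 in the UMIs of H2-Q6 and H2-Q7 together also depended on the class. It was 33.0% in mature DC without cDC1 genes (31.9 to 34.2), 26.4% in resting cDC1 (23.4 to 29.6), 137 of 808 UMIs in pDC (14.4% to 19.7%) and 7.80% in transitional DC (4.61 to 12.2). In citation cells the same shares were 33.0%, 27.6%, 15.9% and 8.83%, each within the WT interval. In Ffar2 cDC2 the intervals of the genotypes did not meet, with 26.7% in WT (25.1 to 28.3) and 29.9% in citation cells (29.0 to 30.9).

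H2-T22 and H2-T23 were, like H2-Q7, highest in pDC, at 131 and 386 CPM in WT. H2-T22 was at 85.0 CPM in transitional DC, 81.1 and 75.9 CPM in mature DC with and without cDC1 genes and between 46.5 and 71.8 CPM elsewhere, except for 22.1 CPM in cDC2 with little ribosomal RNA. H2-T23 was at 271 CPM in transitional DC and at 254, 253 and 250 CPM in Ccr2 cDC2 and both mature classes, values that overlap. Ffar2 cDC2 stood at 194 CPM and resting cDC1 at 173 CPM. H2-M3 was the flattest of the 7, with 2.70-fold between transitional DC (139 CPM) and cDC2 with little ribosomal RNA (51.4 CPM) in WT, and all neighbours in its order overlapped. The class with little ribosomal RNA was low in classical class I genes and B2m as well. In WT, H2-K1, H2-D1 and B2m were at 537, 550 and 480 CPM there, against 1114.8, 1248.6 and 1790.4 CPM in Ffar2 cDC2.

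Cd1d1 had the steepest pattern. It was at 137 CPM in WT mature DC with cDC1 genes, 69.7 CPM in those without, 62.7 CPM in proliferating cells with cDC1 genes and 61.8 CPM in resting cDC1, the last 3 overlapping. Ffar2 cDC2 had 16.3 CPM and Ccr2 cDC2 9.14 CPM. Only 7 UMIs (7.83 CPM) were counted in 80 WT pDC and 1 UMI (1.63 CPM) in 59 transitional DC, and the values of Ccr2 cDC2 and pDC overlap. In thinned cells Cd1d1 was detected in 9.83% of WT resting cDC1 (44.2% unthinned), 2.16% of Ffar2 cDC2 (11.1%) and 1.25% of pDC (8.75%). Resting cDC1 exceeded Ffar2 cDC2 by a log2 ratio of 1.92 (1.67 to 2.17) in WT and 1.18 (0.98 to 1.38) in citation cells.

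The order of classes was not the same in both libraries. In WT, resting cDC1 lay below Ffar2 cDC2 for H2-Q6 (log2 ratio -0.47, -0.69 to -0.24), H2-Q7 (-0.45, -0.58 to -0.31), H2-M3 (-0.45, -0.62 to -0.29) and H2-T23 (-0.17, -0.28 to -0.06). Among citation cells, resting cDC1 lay above Ffar2 cDC2 for H2-Q6 (0.14, 0.03 to 0.25), H2-Q7 (0.30, 0.23 to 0.37) and H2-T23 (0.24, 0.15 to 0.33), and level with them for H2-M3 (0.02, -0.10 to 0.13). The lead of pDC over Ffar2 cDC2 was also smaller among citation cells, at 0.55 against 1.43 for H2-Q6 and 1.72 against 2.27 for H2-Q7. For each of the 7 members the highest and the lowest class were closer together there. They were 6.11-fold apart for H2-Q7, against 9.49-fold in WT, and 5.29-fold against 7.81-fold for H2-Q6. The same values were 4.10 and 6.40 for H2-Q4, 3.64 and 5.93 for H2-T22, 2.93 and 4.05 for H2-T23 and 2.10 and 2.70 for H2-M3. For Cd1d1 they were 40.3 and 83.9, with 1 UMI in the lowest class of each library. No interval was put on these spreads, and small classes such as transitional DC set several of the extremes. For H2-M3 the highest values overlapped, at 139 CPM (111 to 172) in WT and 109 CPM (91.4 to 130) in citation cells. For H2-Q4 and Cd1d1 the extreme classes were not the same in both libraries. H2-Q7, H2-T22 and H2-T23 had pDC as their highest class in both libraries, although among citation cells pDC and transitional DC overlapped for H2-T22 (134 and 109 CPM) and H2-T23 (251 and 245 CPM).

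**Figure D1:**
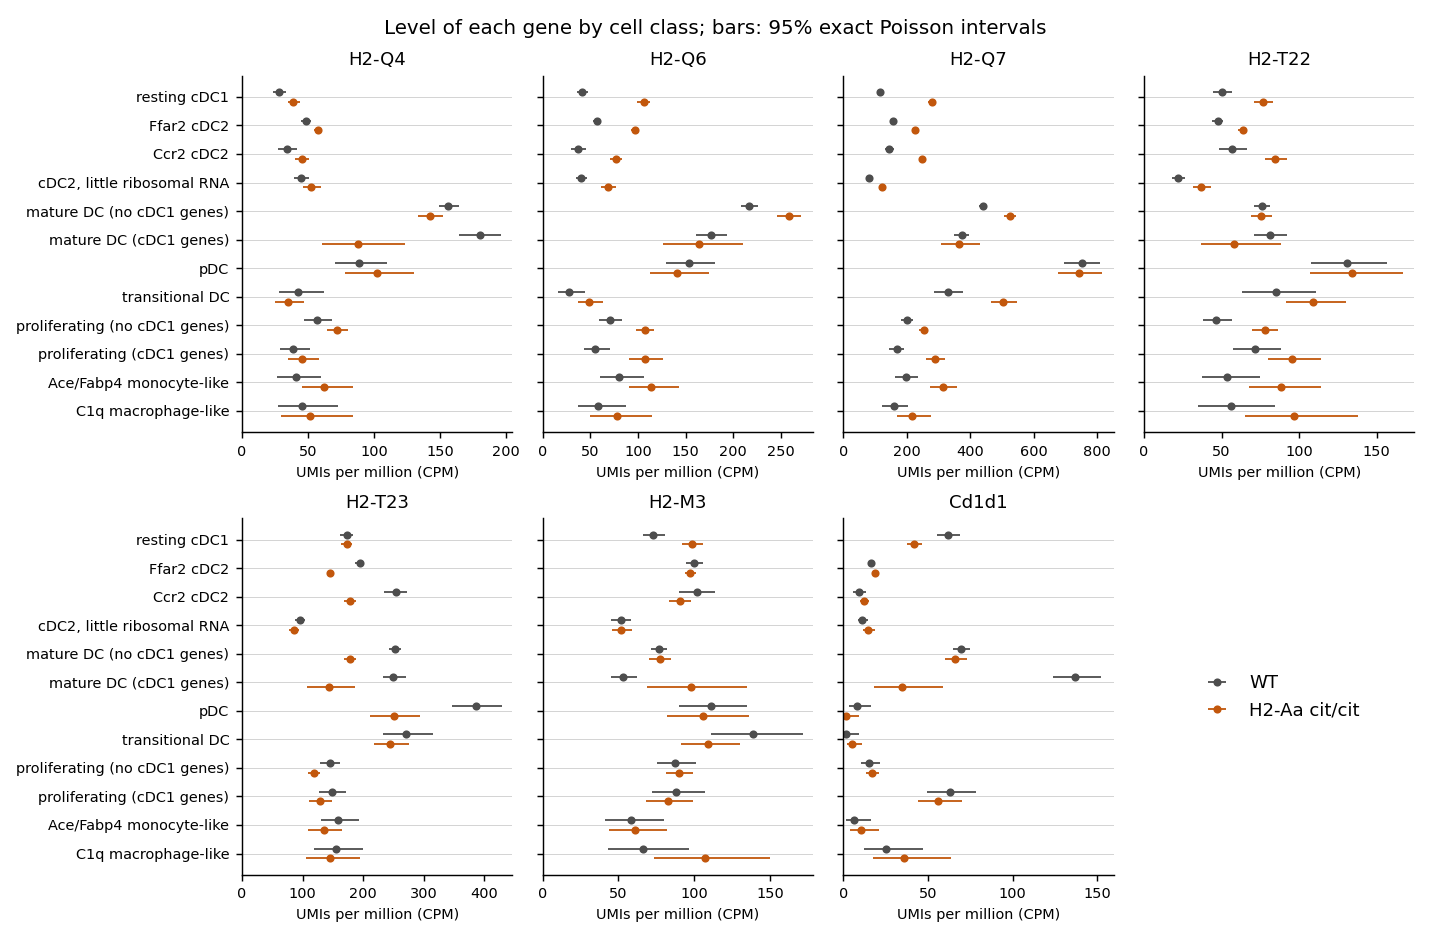
Level of each gene (x axis, CPM, each panel on its own scale from 0) in 12 cell classes (y axis) in the WT (grey) and H2-Aa cit/cit (orange) library, with exact 95% Poisson intervals of counting error. H2-Q7 peaked in pDC at 751 and 743 CPM, whereas Cd1d1 was highest in mature cells and cells with cDC1 genes and near 0 in pDC and transitional DC.

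Across the 24 values of a gene (12 classes in 2 libraries), the members fell into patterns that Pearson's r of log2(CPM + 10) describes. H2-Q4 and H2-Q6 were alike (r = 0.86), as were H2-Q7 and H2-T22 (0.84), while Cd1d1 was not like H2-Q7 or H2-T22 (-0.05 for both). The points share 2 libraries, their depths and the genes that gate the classes, so r is a description. Of 9594 genes, those closest to H2-Q6 were H2-Q4 (0.859), Tapbpl (0.824), a tapasin relative that edits class I peptides, and Irf1 (0.808), a transcription factor of interferon responses. The genes closest to H2-Q7 were H2-T22 (0.843), Keap1 (0.823) and H2-K1 (0.817), and those closest to H2-T22 were H2-Q7, the immunoproteasome gene Psmb10 (0.842) and Atxn7l3b (0.823). H2-Q4 was nearest to Snn, Serinc5 and Rnf115 (0.897 to 0.881), H2-T23 to Rnaset2a, AI837181 and Gnas (0.852 to 0.828) and H2-M3 to Hes6, Gng10 and 2310039H08Rik (0.872 to 0.836). Cd1d1 was nearest to Id2 (0.944), a transcriptional regulator that cDC1 depend on, then to Adam8 (0.903) and Serpinb6b (0.897), the last of which is also one of the markers of the mature gate.

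Between the genotypes, H2-Q6 and H2-Q7 were higher in citation cells in 10 of the 12 classes each. The log2 ratio of H2-T23, rounded to 2 decimals, was below 0 in 11 classes, with the interval below 0 in 6, and 0.00 in resting cDC1. All classes come from the same 2 libraries, so they do not repeat the comparison. In the 6 classes with at least 100 cells in each library, 41.4% to 51.4% of genes that reached 50 CPM had a ratio above 0. The 2 exceptions for both Q genes were pDC and mature DC with cDC1 genes. In resting cDC1, H2-Q6 was at 41.1 CPM (35.8 to 47.1) in WT and 106 CPM (99.0 to 113) in citation cells, a ratio of 2.58 and a log2 ratio of 1.37 (1.15 to 1.59). H2-Q7 went from 115 CPM (106 to 124) to 279 CPM (267 to 290), a log2 ratio of 1.28 (1.15 to 1.41). The 2 libraries did not overlap for either gene. In thinned cells H2-Q7 was detected in 15.6% of WT and 30.7% of citation resting cDC1 (26.8 to 34.9), without thinning in 62.3% and 88.8%. H2-T22 was at 50.1 and 76.8 CPM (log2 ratio 0.62, 0.40 to 0.83), H2-M3 at 73.1 and 98.7 CPM (0.43, 0.25 to 0.61) and H2-Q4 at 28.1 and 38.9 CPM (0.47, 0.18 to 0.77). H2-T23 was at 173 CPM in both (0.00, -0.12 to 0.13), and Cd1d1 went the other way, from 61.8 to 41.8 CPM (-0.56, -0.79 to -0.34). Past the fold were 3 of the 7 genes (H2-Q6, H2-Q7 and H2-T22), all higher, where 9.76% of the 3575 genes that reached 50 CPM in WT or citation cells were past it upwards and 8.59% downwards. Of those genes, 97.2% had a lower log2 ratio than H2-Q6 and 96.9% a lower one than H2-Q7. H2-Q6 reached 50 CPM in citation cells only. It thus entered this set through the library in which it was high, and its place there is a description.

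In Ffar2 cDC2, the largest class, the same genes differed by less. H2-Q6 was at 56.8 and 96.4 CPM in WT and citation cells (log2 ratio 0.76, 0.65 to 0.88), the only member past the fold, against 2.33% of 3694 genes upwards and 1.06% downwards. H2-Q7 was at 156 and 226 CPM (0.53, 0.46 to 0.60), H2-T22 at 47.4 and 63.7 CPM (0.43, 0.30 to 0.56) and H2-Q4 at 48.4 and 57.1 CPM (0.24, 0.11 to 0.37). H2-T23 was lower in citation cells, at 146 against 194 CPM (-0.40, -0.47 to -0.33). Its ratio was under that of most genes here, with 2.79% of genes lower still. H2-M3 (100 and 97.4 CPM) and Cd1d1 (16.3 and 18.5 CPM) differed by no more than counting error.

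Ccr2 cDC2, the monocyte-gene-bearing subset, showed the same split. H2-Q6 was at 36.9 and 76.5 CPM (log2 ratio 1.05, 0.74 to 1.37) and H2-Q7 at 144 and 249 CPM (0.79, 0.63 to 0.95). Both were past the fold, where 2.61% of 3606 genes were past it upwards and 1.14% downwards. H2-Q6 reached 50 CPM, the limit for those genes, in citation cells only. H2-T22, at 56.7 and 84.8 CPM (0.58, 0.32 to 0.85), lay just under the fold. H2-T23 was at 254 and 179 CPM (-0.50, -0.64 to -0.37). In 1.97% of genes the ratio was lower. H2-M3 was at 102 and 90.4 CPM and Cd1d1 at 9.14 and 12.0 CPM, both with intervals that span 0.

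In cDC2 with little ribosomal RNA, set apart by a ribosomal share of UMIs under 8%, depth was lower, with a median of 3097 UMIs per cell in WT and 2401 in citation cells. H2-Q6 was at 40.3 and 68.4 CPM (log2 ratio 0.76, 0.50 to 1.03), H2-Q7 at 79.1 and 122 CPM (0.62, 0.43 to 0.81) and H2-T22 at 22.1 and 36.9 CPM (0.74, 0.39 to 1.10). These 3 were past the fold, against 1.93% of 3997 genes upwards and 1.50% downwards, though H2-T22 was under the 50 CPM asked of those genes. H2-Q6 reached it in citation cells only. H2-T23 (95.3 and 85.4 CPM) and H2-M3 (51.4 and 51.9 CPM) had intervals that span 0. Proliferating cells without cDC1 genes had H2-T22 at 46.5 and 77.8 CPM (0.74, 0.41 to 1.08) and H2-Q6 at 70.4 and 107 CPM (0.61, 0.34 to 0.88), both past the fold, with 2.67% of 4115 genes past it upwards and 1.90% downwards. H2-T22 reached 50 CPM in citation cells only there as well. H2-Q7 was at 199 and 253 CPM in this class (0.34, 0.18 to 0.51) and H2-T23 at 145 and 119 CPM (-0.29, -0.50 to -0.08).

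In mature DC without cDC1 genes the Q genes already stood high in WT. No member was past the fold, while 2.61% of 3564 genes were past it upwards and 3.40% downwards. H2-Q6 was at 217 and 258 CPM (log2 ratio 0.25, 0.16 to 0.34) and H2-Q7 at 440 and 525 CPM (0.25, 0.19 to 0.32). H2-T22 was at 75.9 and 75.7 CPM (-0.00, -0.17 to 0.16). H2-T23 had a log2 ratio as low as in Ccr2 cDC2, with 253 and 178 CPM (-0.51, -0.61 to -0.40). H2-Q4, at 156 and 142 CPM (-0.13, -0.25 to -0.01), was on the other side of 0 than in cDC1 and cDC2. H2-M3 (76.7 and 77.3 CPM) and Cd1d1 (69.7 and 66.0 CPM) had intervals that span 0.

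**Figure D2:**
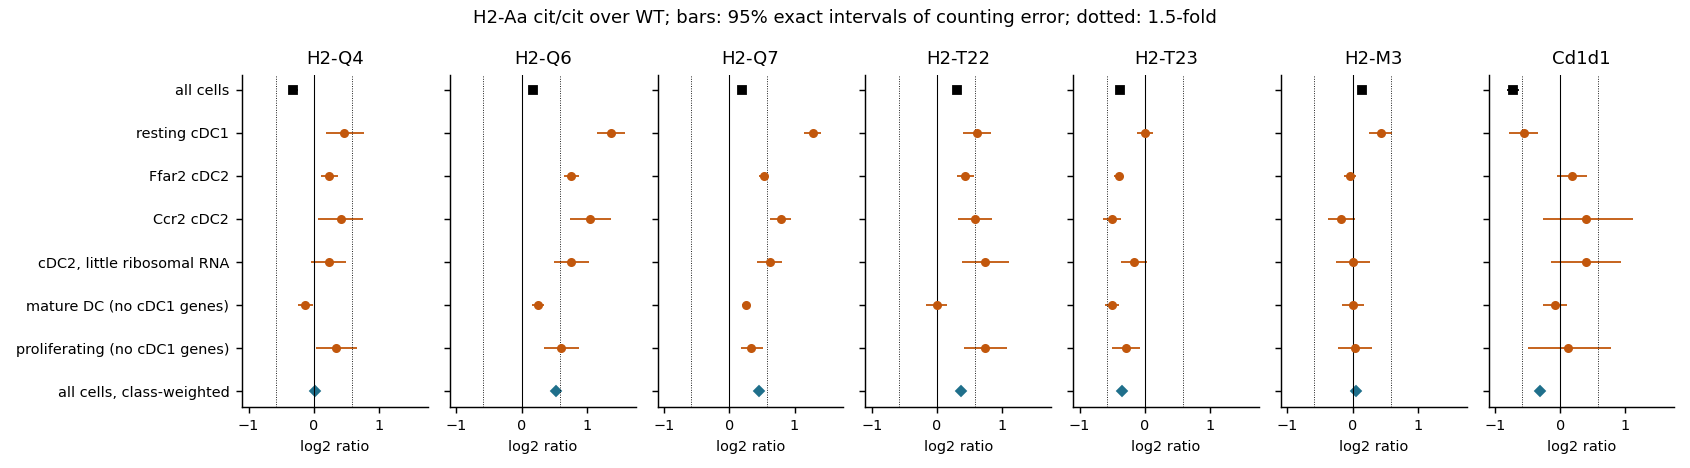
Log2 ratio of H2-Aa cit/cit over WT (x axis) for each gene (panels) over all cells (black squares), in the 6 classes with at least 100 cells in each library (orange circles) and over all cells with both libraries given the same class weights (blue diamonds). Bars are 95% exact intervals of counting error, and dotted lines mark 1.5-fold. H2-Q6 and H2-Q7 lie right of 0 in all 6 classes and furthest in resting cDC1, at 1.37 and 1.28, and H2-T23 lies at or left of 0.

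The smaller classes were counted less deeply. In pDC, H2-Q7 was at 751 and 743 CPM (log2 ratio -0.01, -0.19 to 0.16) and H2-Q6 at 153 and 141 CPM (-0.12, -0.53 to 0.28), so the class with the highest H2-Q7 was also one in which it did not differ beyond counting error. H2-T23 was lower in citation cells in pDC, at 386 and 251 CPM (-0.62, -0.91 to -0.34), and in mature DC with cDC1 genes, at 250 and 143 CPM (-0.81, -1.23 to -0.41). That mature class, with 33 citation cells, also had H2-Q4 at 180 and 87.4 CPM (-1.04, -1.59 to -0.53) and H2-M3 at 53.1 and 98.0 CPM (0.88, 0.32 to 1.41). Of these citation cells, 48.5% were likely doublets by Scrublet score, against 13.2% in WT, and the values include them. The share called over a library was set by its number of cells and so was larger for the citation library. Thinned pDC held an H2-T23 UMI in 55.0% of 80 WT cells (43.5 to 66.2) and 29.5% of 78 citation cells (19.7 to 40.9), and unthinned in 92.5% and 82.1%. Transitional DC had H2-Q7 at 329 and 504 CPM (0.62, 0.39 to 0.86) and H2-Q6 at 27.8 and 48.9 CPM (0.81, 0.02 to 1.69). Proliferating cells with cDC1 genes had H2-Q6 at 55.3 and 107 CPM (0.95, 0.52 to 1.39) and H2-Q7 at 168 and 289 CPM (0.78, 0.54 to 1.04). The H2-Q7 interval lay below that of resting cDC1 (1.15 to 1.41), while the H2-Q6 intervals of these 2 classes overlapped. In Ace and Fabp4 monocyte-like cells H2-Q7 was at 197 and 314 CPM (0.68, 0.35 to 1.01) and H2-T22 at 53.5 and 88.4 CPM (0.72, 0.10 to 1.37). C1q macrophage-like cells, with 63 and 67 UMIs of H2-Q7, gave 160 and 216 CPM and an interval that spans 0 (-0.08 to 0.95).

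**Figure D3:**
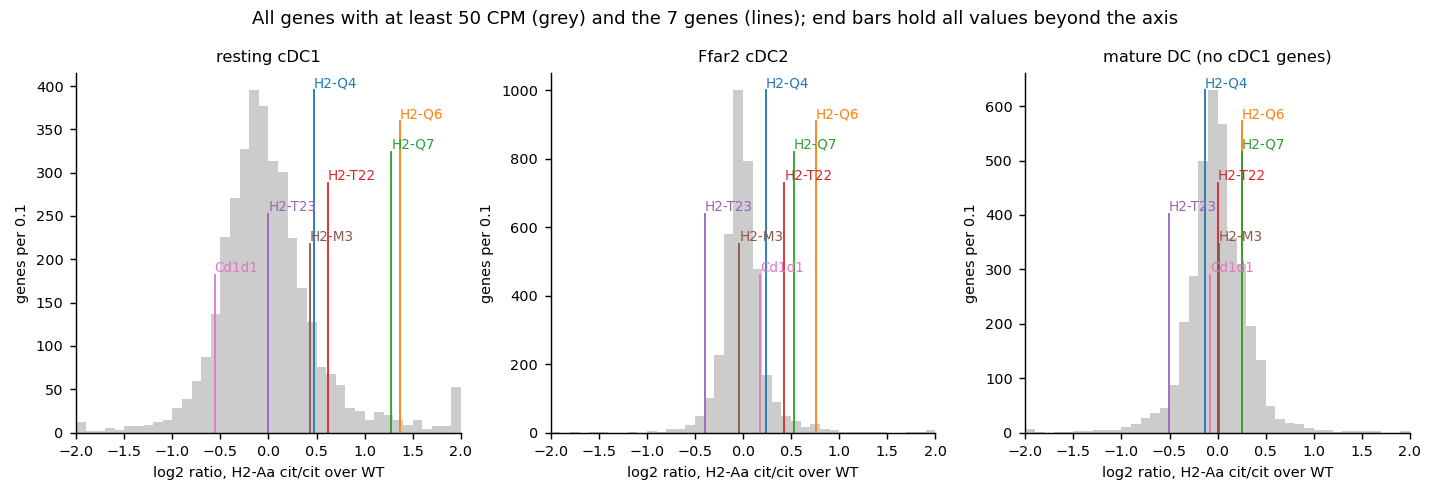
Log2 ratio of H2-Aa cit/cit over WT (x axis) of all genes that reached 50 CPM in WT or H2-Aa cit/cit cells (grey bars, genes per 0.1, end bars holding all values beyond the axis) and of the 7 genes (coloured lines, whose height has no meaning) in 3 classes. H2-Q6 and H2-Q7 stand in the upper tail in resting cDC1 and Ffar2 cDC2 and nearer the middle in mature DC, at 0.25 each. In resting cDC1, H2-Q6 reached 50 CPM in H2-Aa cit/cit cells only.

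Values over all cells also carry the class shares, and mature cells, in which the Q genes and Cd1d1 are high, were fewer in the citation library. H2-Q4 was at 77.3 and 62.0 CPM (log2 ratio -0.32, -0.38 to -0.25) over all cells, but 0.02 when both libraries were given the same class weights. H2-Q6 moved from 0.18 to 0.53 and H2-Q7 from 0.20 to 0.46 with these weights, and Cd1d1 from -0.73 to -0.31. H2-T23 (-0.38 and -0.35), H2-T22 (0.30 and 0.36) and H2-M3 (0.15 and 0.05) moved less. Without weights, Cd1d1, at 40.4 and 24.4 CPM, was the only member past the fold, where 8.25% of 3953 genes were past it downwards and 3.87% upwards, and it was under the 50 CPM asked of those genes.

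By class, Cd1d1 was lower in citation cells in resting cDC1 and in mature DC with cDC1 genes. Cells without a class also had less, at 38.4 and 17.4 CPM (log2 ratio -1.14, -1.47 to -0.82). In proliferating cells with cDC1 genes it was at 62.7 and 55.9 CPM (76 UMIs each), with an interval that spans 0 (log2 ratio -0.17, -0.64 to 0.31). Mature DC with cDC1 genes had 137 CPM in WT (220 cells, 377 UMIs) and 34.4 CPM in citation cells (33 cells, 13 UMIs), a log2 ratio of -1.99 (-2.92 to -1.20). When mature cells were divided by the number of cDC1 markers detected, WT cells with 0, 1, 2 and 3 or 4 markers had 65.9, 77.9, 134 and 142 CPM of Cd1d1. Citation cells had 71.4, 43.6, 29.8 and 52.7 CPM in the same steps, the last 2 from 28 and 5 cells. Levels of Cd1d1 thus overlapped between the genotypes where no cDC1 marker was seen, were apart with 1 or 2, and overlapped again with 3 or 4 (120 to 167 CPM in WT, 14.4 to 135 CPM in citation cells). Depth rose over the same steps. Median UMIs per cell went from 6354 to 14055 in WT and from 5041 to 13707 in citation cells. The steps therefore also sort cells by depth, and the part of depth was not tested. Among mature cells with cDC1 genes, likely doublets by Scrublet score were 13.2% in WT and 48.5% in the citation library. The share called over a library was set in advance and larger for the citation library, so these percentages are not alike. Without likely doublets Cd1d1 was at 147 CPM in 191 WT cells and 62.5 CPM in 17 citation cells (7 UMIs). The part of doublets in this difference was not tested beyond these values.

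**Figure D4:**
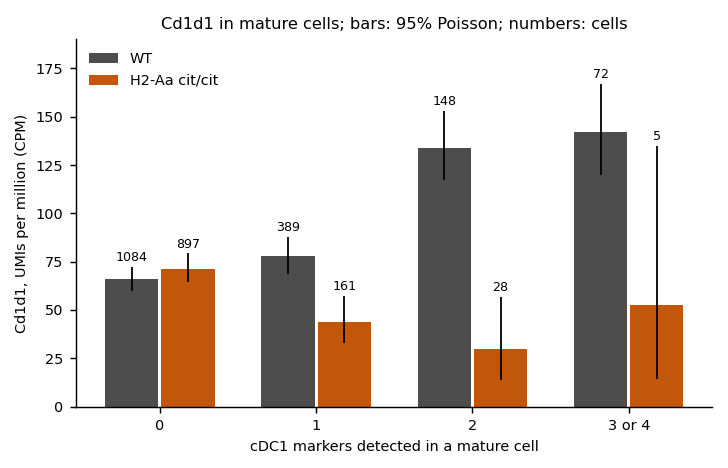
Cd1d1 level (y axis, CPM) in mature cells by the number of cDC1 markers detected in the cell (x axis), in WT (grey) and H2-Aa cit/cit (orange) cells, with 95% exact Poisson intervals and the number of cells above each bar. WT values ran from 65.9 CPM with no marker to 142 CPM with 3 or 4, and H2-Aa cit/cit values were 71.4 CPM with no marker and lower with 1 or 2. Median UMIs per cell also rose over these steps in both libraries.

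The genes around the members were read from lists of relatives, partners and regulators. Of 13 other class Ib and MHC-I-like genes, at most 3 reached 50 CPM in any of the 6 classes. H2-M2, a class Ib gene of the M region 3.19 megabases from H2-Aa, was lower in citation cells than in WT, at 135 and 51.0 CPM in Ffar2 cDC2 (log2 ratio -1.41, -1.51 to -1.31) and at 82.2 and 14.4 CPM in Ccr2 cDC2 (-2.52, -2.87 to -2.17). In mature DC without cDC1 genes H2-M2 was at 903 and 746 CPM (-0.28, -0.33 to -0.23). Its direction was opposite to that of H2-Q6 and H2-Q7. The H2-M2 promoter holds the shorter interferon type, as TTTCCCTTC, and kappaB-type matches, as GGGAATTCC, both types also found before H2-Q6 and H2-Q7. Any link between these letters and the levels was not tested. H2-T24, a low gene of the T region, was at 16.5 and 22.1 CPM in Ffar2 cDC2 (0.42, 0.20 to 0.64). Mr1, which presents vitamin B metabolites, was at 1.76 and 1.40 CPM over all cells.

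Classical class I genes had smaller ratios than H2-Q6 and H2-Q7 in resting cDC1 and Ffar2 cDC2. In resting cDC1, H2-K1 was at 792 and 1245.9 CPM (log2 ratio 0.65, 0.60 to 0.71) and H2-D1 at 1180.6 and 1480.6 CPM (0.33, 0.28 to 0.37). B2m, the light chain, was at 1158.8 and 1250.2 CPM (0.11, 0.06 to 0.16) in resting cDC1 and at 1790.4 and 1579.3 CPM (-0.18, -0.20 to -0.16) in Ffar2 cDC2. H2-K1 in Ffar2 cDC2 was at 1114.8 and 1395.4 CPM (0.32, 0.30 to 0.35) and H2-D1 at 1248.6 and 1278.8 CPM (0.03, 0.01 to 0.06).

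Of 11 peptide loading genes that reached 50 CPM in WT or citation resting cDC1, 4 were past the fold upwards. Among all genes under the same limit, the share was 9.76%. The counts were 3 of 10 in Ffar2 cDC2 (2.33% of all genes), 3 of 10 in Ccr2 cDC2 (2.61%), 3 of 9 in cDC2 with little ribosomal RNA (1.93%), 3 of 11 in mature DC without cDC1 genes (2.61%) and 2 of 10 in proliferating cells without cDC1 genes (2.67%). None was past it downwards in these 6 classes, where 1.06% to 8.59% of all genes were, and 0 of so few genes is near that share. Where 3 were past it upwards, they were in each class the chaperones Calr, Canx and Pdia3, which fold many glycoproteins besides class I, and the 2 in proliferating cells were Calr and Pdia3. In resting cDC1 the fourth was Tapbpl (32.8 and 73.9 CPM, log2 ratio 1.17, 0.92 to 1.43), which reached 50 CPM in citation cells only. The list's median was 0.41 in resting cDC1, against -0.06 over all genes. The peptide transporter gene Tap1 was at 189 and 252 CPM in resting cDC1 (0.41, 0.30 to 0.52) and at 172 CPM in both libraries in mature DC without cDC1 genes. The list did not move as 1, with 9 of 11 genes above 0 in resting cDC1 and 5 of 11 in that mature class. Tapbp, the tapasin gene, was lower in both, at 152 and 127 CPM (-0.26, -0.40 to -0.13) and at 270 and 217 CPM (-0.32, -0.41 to -0.22). Tap2 was lower in the mature class, at 161 and 132 CPM (-0.29, -0.41 to -0.17).

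Of the 13 genes of CD1d lipid loading and sorting, the 5 to 10 that reached 50 CPM had medians between -0.07 and 0.11 in the 6 classes, with members on both sides of 0. In resting cDC1, where Cd1d1 was lower, Lipa, a lysosomal acid lipase, was higher (114 and 174 CPM, log2 ratio 0.61, 0.47 to 0.75) and Gm2a, a glycolipid-binding activator, lower (1249.4 and 733 CPM, -0.77, -0.82 to -0.72). In mature DC without cDC1 genes Gm2a was higher (140 and 221 CPM, 0.66, 0.55 to 0.76). In proliferating cells without cDC1 genes Psap, the saposin precursor, was at 439 and 724 CPM (0.72, 0.61 to 0.83) and Npc2, a lysosomal cholesterol carrier, at 108 and 163 CPM (0.59, 0.38 to 0.82).

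Among 9 regulators, Nlrc5, the class I transactivator, differed in direction between classes. It was lower in resting cDC1 (112 and 88.2 CPM, log2 ratio -0.34, -0.50 to -0.18), and higher in Ffar2 cDC2 (88.4 and 105 CPM, 0.25, 0.15 to 0.35) and in proliferating cells without cDC1 genes (65.6 and 111 CPM, 0.75, 0.48 to 1.04). Over all cells Nlrc5 was past the fold downwards, where 8.25% of 3953 genes were, a value that also carries the class shares. The study's immunoblot found more NLRC5 protein in splenic DC of citation mice, a measure unlike RNA by class. Whether Nlrc5 has a part in the levels of H2-Q6 and H2-Q7 was not tested. Irf1 was higher in resting cDC1 (75.1 and 118 CPM, 0.65, 0.48 to 0.82) and in Ffar2 cDC2 (103 and 127 CPM, 0.30, 0.21 to 0.39), and lower in mature DC without cDC1 genes (410 and 358 CPM, -0.19, -0.27 to -0.12).

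Of 14 interferon-stimulated genes, those that reached 50 CPM in WT or citation cells had medians of 0.87 in resting cDC1 (3 genes), 0.62 in Ffar2 cDC2 (8 genes), 0.90 in Ccr2 cDC2 (9 genes), 0.89 in cDC2 with little ribosomal RNA (3 genes), 0.28 in mature DC without cDC1 genes (5 genes) and 1.08 in proliferating cells without cDC1 genes (8 genes), against all-gene medians between -0.06 and 0.01. A gene high in 1 library alone can pass this limit, so these medians can lean towards genes that differ. None was past the fold downwards in these 6 classes, where 1.06% to 8.59% of all genes were. Among so few genes, 0 is near that share. The median of the 7 members in the same order was 0.47, 0.24, 0.41, 0.39, -0.00 and 0.34. It takes all 7 without the 50 CPM limit, so the 2 sets of medians are not alike. Isg15, a ubiquitin-like protein induced by interferon, was at 25.1 and 71.6 CPM in resting cDC1 (log2 ratio 1.51, 1.23 to 1.80) and at 46.8 and 117 CPM in Ccr2 cDC2 (1.33, 1.06 to 1.61). In both classes it reached 50 CPM in citation cells only. Gbp2 was at 2.14 and 16.3 CPM in resting cDC1 (2.93, 2.04 to 3.97). Mature DC without cDC1 genes had the lowest median for the list and for the members, while the order of the other classes differed. Both sets come from the same 2 libraries, and a link between them was not tested.

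**Figure D5:**
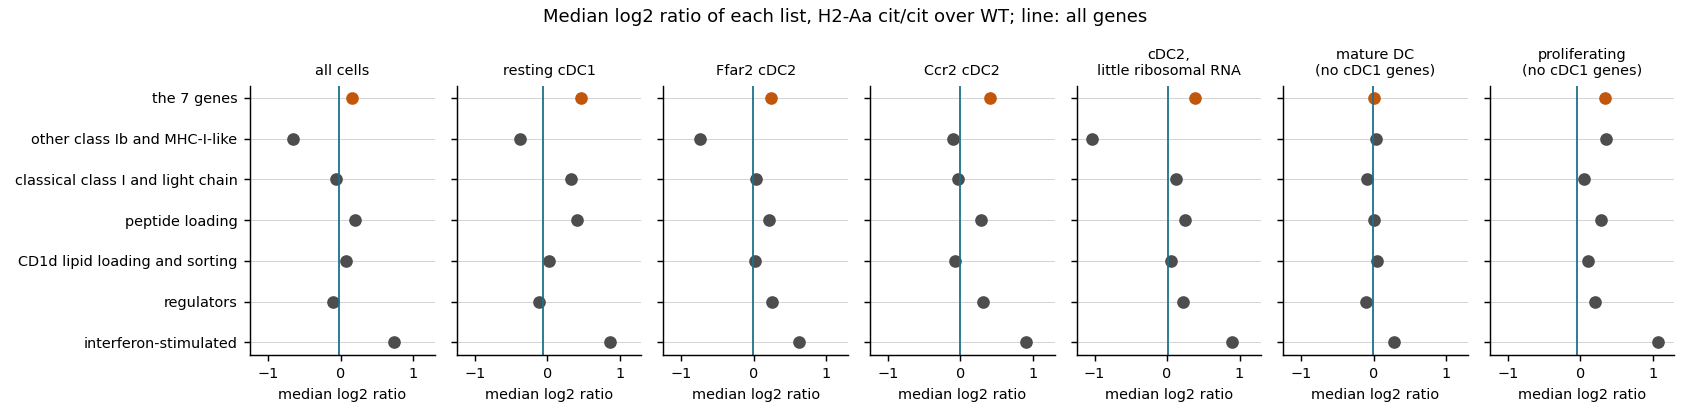
Median log2 ratio of H2-Aa cit/cit over WT (x axis) of the 7 genes (orange) and of 6 gene lists (grey, members that reached 50 CPM in WT or H2-Aa cit/cit cells) over all cells and in 6 classes (panels), with the median over all genes as a line. Interferon-stimulated genes have the highest median in every panel, from 0.28 in mature DC, where the 7 genes are at -0.00, to 1.08 in proliferating cells. The list of other class Ib and MHC-I-like genes rests on 1 to 3 genes. The median of the 7 genes takes all 7, without the 50 CPM limit.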

How the data were processed

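Single-cell RNA-seq (10x, 3' chemistry) of sorted splenic CD11c+ cells had 1 library per genotype, from 3 mice pooled. Per the submitters' processing notes the authors ran Cell Ranger 5.0.1 on the mm10 build (GRCm38), and Seurat. The deposited matrices hold raw UMI counts, not normalized. The 7 members and the gene lists were chosen with earlier results of these data known.

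Cells were gated by marker lists without MHC genes. Gate limits were set from the markers' distributions after the files had been seen. UMIs were summed over a class and library and scaled to its total (CPM). Levels carry exact Poisson intervals, ratios exact conditional binomial intervals and shares Clopper-Pearson intervals, all at 95% and covering counting error only. A gene at 0 was read as 3 UMIs in counts over all genes. Shares used cells thinned to 1500 UMIs, and 734 (WT) and 958 (citation) shallower cells were left out. Doublets were not removed in the main values. Likely doublets were the cells with the highest Scrublet scores, up to a share set by the number of cells (488 WT and 1063 citation cells). Named are the 7 members, the listed genes, the 3 genes most similar to each member and H2-Aa, and the markers given as checks were chosen after their values were seen. H2-T9, H2-T10, Cd1d2 and Mx1 were not analysed here. The values of 1 listed regulator are not reported here. The ratio step was tested on simulated data. Python 3.11.15, numpy, scipy 1.17.1, scanpy 1.11.5 (Scrublet), scikit-learn 1.9.0, Biopython and matplotlib 3.10.9 were used, with GENCODE vM21 and RefSeq GRCm38.p6. Alternatives were other totals and size factors, cell weights, mitochondrial and doublet limits, stricter or neighbour-voted gates, thinning, another fold, minimum and pseudocount.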

Additional observations from a re-analysis of the deposited data

Results flagged for a closer look

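H2-Q4 lay on opposite sides of 0 in different classes, with the counting intervals apart from 0 on each side. Its log2 ratio of H2-Aa cit/cit over WT was 0.47 in resting cDC1, 0.24 in Ffar2 cDC2, 0.41 in Ccr2 cDC2 and 0.34 in proliferating cells without cDC1 genes, but -0.13 in mature DC without cDC1 genes. The difference between the classes was not tested, since each genotype has 1 library. In thinned cells the value in mature DC was 0.08, and the cause of this change of sign was not tested.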

How the results depend on the processing

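Each log2 ratio in the 6 classes (42 values) was recomputed under 8 alternatives. All 11 values past the fold kept their direction in each, and from 8 (classes by neighbours) to 11 stayed past it. The sign was kept by between 33 (thinned cells) and 42 of the 42 values. With thinned cells, 21 of 49 log2 ratios, those over all cells included, left their counting interval. Of 168 class levels, 66 left theirs with thinned cells. With totals that leave out ribosomal and mitochondrial genes, 102 of the 168 did. The count of members lower over all cells, 1, fell to 0 with the mean over cells, with thinned cells, with a fold of 2 and, in an alternative chosen after seeing the data, without the mature classes, where 1 member was higher (H2-Q6, log2 ratio 0.71). In resting cDC1 the count of lower members went from 0 to 1 (Cd1d1) with the mean over cells and with thinned cells. The counts of higher members with a fold of 2 were 0 in Ffar2 cDC2, 1 in Ccr2 cDC2, 0 in cDC2 with little ribosomal RNA and 0 in proliferating cells without cDC1 genes. In the last class the higher count, 2, became 1 with a stricter gate, 0 with classes by neighbours and 1 with thinned cells, where 1 member (H2-T23) was lower. The cause of these changes was not tested. Leaving out cells without a class, also chosen after seeing the data, moved neither count over all cells. No paired analysis was possible because each genotype has 1 library, both labelled replicate 1. Low counts limit Cd1d1 outside mature cells and cDC1, and all members in the smaller classes.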

Other observations

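Some gated cells were too few for the comparisons. In NK-like cells, 28 in WT and 16 in citation, H2-Q7 was at 596 CPM (471 to 744) and 432 CPM (289 to 620), near the level of mature DC, and H2-Q6 at 222 and 179 CPM. A Cd1d1 UMI was seen in 0 of 28 thinned WT cells, which allows a share of cells with a UMI of up to 10.7% (3 cells; exact upper limit 12.3%), and in 0 of 15 thinned citation cells (exact upper limit 21.8%), for counting error only. Neutrophil-like cells, 10 and 12, held 1 and 6 UMIs of H2-Q7.

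H2-M5, another class Ib gene of the M region, had 8.97 (WT) and 3.14 CPM (citation) in resting cDC1 (log2 ratio -1.51, -2.28 to -0.78), a direction shared there with Cd1d1 and not with H2-Q6 or H2-Q7. H2-Q10 was at 3.52 and 6.65 CPM in Ffar2 cDC2 (log2 ratio 0.92). The MHC-I-like genes Hfe, an iron regulator, and Fcgrt, the neonatal Fc receptor, were both lower in resting cDC1, at 205 and 155 CPM (-0.40, -0.52 to -0.28) and 80.5 and 62.9 CPM (-0.36, -0.55 to -0.16).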
